A study of Mus musculus with 198 samples.

Results

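The genes described here are 7 microglia genes, Cx3cr1, Csf1r, Aif1, P2ry12, Trem2, Tyrobp and Cd68, and every array probe annotated to one of these symbols was taken. The annotation gave 7 such probes among the 25697 on the array, and they covered 5 of the 7 genes. Cx3cr1, P2ry12, Trem2 and Tyrobp had 1 probe each and Aif1 had 3, whereas no probe carried the symbol Csf1r or Cd68, and these genes were not analysed here. The arrays measured total RNA of whole hippocampus (100 arrays, 99 strains) and whole striatum (98 arrays, 97 strains) of male mice of the Hybrid Mouse Diversity Panel, with 96 strains named alike in both tissues. The panel holds classical inbred strains and recombinant inbred (RI) strains, bred from B6 with DBA (BXD, 30 strains), with AJ (AXB/BXA, 28 strains) and with C3H (BXH, 11 strains in hippocampus and 10 in striatum). The strains called other inbred below are all those outside the RI sets except B6Cc3. They include the RI parents B6, DBA, AJ and C3H and the wild-derived CAST. The mice were bought as young adults and had gone through contextual and cued fear conditioning, and no unconditioned group was analysed here. B6Cc3 aside, 1 array was run per strain and tissue, so the spread given below is that between strains, and p-values treat strains as independent although RI strains share parents.

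Microglia are the resident macrophages of the brain, which enter it during embryonic life, renew themselves there and survey the tissue with motile processes. Their surface receptors read out the state of neighbouring cells: CX3CR1 binds fractalkine made by neurons, P2RY12 senses nucleotides released from injured cells and steers the processes toward them, and TREM2 binds lipids and lipoproteins and signals through the adaptor TYROBP (DAP12). CSF1R carries the survival signal of the cells, AIF1 (IBA1) is an actin-binding protein widely used to stain them, and CD68 is a lysosomal protein of macrophages.

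Trem2, Aif1, Cx3cr1 and P2ry12 are shown with the 250 bases before the annotated start of transcription, 5′ to 3′ on the strand of the gene (RefSeq, GRCm38.p6), since several of these genes varied together across strains and PU.1, the lineage factor of macrophages, binds the purine-rich letters GAGGAA. The windows are chr17:48346151-48346400 (plus strand) for Trem2, chr17:35176053-35176302 (minus strand) for Aif1, chr9:120068297-120068546 (minus strand) for Cx3cr1 and chr3:59262986-59263235 (minus strand) for P2ry12. Capitals mark GAGGAA or its reverse complement TTCCTC.
Trem2: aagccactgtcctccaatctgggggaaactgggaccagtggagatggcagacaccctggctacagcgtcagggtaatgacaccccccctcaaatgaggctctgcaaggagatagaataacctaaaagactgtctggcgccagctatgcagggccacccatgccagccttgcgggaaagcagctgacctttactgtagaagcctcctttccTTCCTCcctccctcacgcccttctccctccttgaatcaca
Aif1: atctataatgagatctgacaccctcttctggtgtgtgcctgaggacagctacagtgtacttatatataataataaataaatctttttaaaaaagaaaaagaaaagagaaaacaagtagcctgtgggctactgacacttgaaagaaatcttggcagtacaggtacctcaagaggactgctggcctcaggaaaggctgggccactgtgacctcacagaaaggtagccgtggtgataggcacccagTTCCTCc
Cx3cr1: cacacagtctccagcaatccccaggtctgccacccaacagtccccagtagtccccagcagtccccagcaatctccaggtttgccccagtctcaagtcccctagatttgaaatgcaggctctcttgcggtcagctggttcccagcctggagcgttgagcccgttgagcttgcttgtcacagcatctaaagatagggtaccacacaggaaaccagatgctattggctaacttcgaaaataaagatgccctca
P2ry12: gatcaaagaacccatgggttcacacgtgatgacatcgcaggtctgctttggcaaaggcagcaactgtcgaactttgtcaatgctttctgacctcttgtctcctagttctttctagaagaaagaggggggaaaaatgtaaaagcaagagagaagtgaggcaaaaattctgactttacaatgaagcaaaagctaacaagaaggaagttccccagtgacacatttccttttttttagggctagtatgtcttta
Trem2 held 1 match, TTCCTC with its first base 40 bases before the start, and Aif1 held 1, TTCCTC with its first base 7 bases before the start. Cx3cr1 and P2ry12 held neither string in this window. Of all 32851 promoter windows of the same length, 23.3% held at least 1 of the strings, so a match in this window is common, and binding was not measured. Tyrobp had no entry in the promoter table.

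A probe was called detected on an array at a detection p under 0.01, which compares it with the negative control probes. Of the 7 probes, 6 were detected on 99 to 100 of the 100 hippocampus arrays and on 97 to 98 of the 98 striatum arrays. The third Aif1 probe (ILMN_1218123) was detected on 0 arrays of either tissue, with a median detection p of 0.386 in hippocampus and 0.349 in striatum, and was not tested. For Aif1 the detected probe of higher mean signal (ILMN_2804487) is the one described, with the second (ILMN_1212938) given beside it.

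Several arrays differed from the rest or from their label. The hippocampus array of AXB19b stood apart, its rank correlations with the rest of that tissue having a median of 0.615, and so did the striatum arrays of SM (0.856) and NZW (0.890), whereas all others lay at or above 0.914. These 3 arrays were left out of the correlations and strain-set comparisons. The striatum array labelled KK had a mean log2 signal of 8.72 over 5 striatal neuron genes, within the hippocampus range of 7.98 to 9.46 and below every other striatum array (lowest 11.22). Over 451 probes with a between-tissue r above 0.85, the hippocampus array labelled AXB15 correlated at 0.403 with the striatum array of the same label and at 0.840 with that of AXB19b, and the hippocampus array labelled AXB19 at 0.442 with its own label and at 0.918 with striatum AXB15. Leaving out KK changed no call for these genes, nor did leaving out AXB15 and AXB19 in the comparisons of tissues within strains. Apart from AXB19b, every other strain with both tissues matched its own label best over these probes. The probes were chosen for agreement under the same labels, which favours such a match. Over all detected probes 73 of 96 strains matched their own name best.

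Other genes of microglia were measured in both tissues. Of 12 further resident microglia genes with a probe, 10 were detected, among them Tmem119, P2ry13, Gpr34, Siglech and Sall1, on 97 to 99 hippocampus arrays and 96 to 98 striatum arrays. Of 7 blood leukocyte genes with a probe only S100a8 passed the detection filter, on 12 hippocampus and 24 striatum arrays, while Ccr2 and Cd79a were detected on 0 arrays. Lyve1 and Cbr2, genes of macrophages along vessels, were also detected on 0 arrays, and Mrc1, another, on 88 hippocampus and 41 striatum arrays. Lack of detection does not show absence here: the probes of the neuronal genes Snap25 and Nefl and of the myeloid genes Itgam, Ptprc and Itgb2 were likewise detected on 0 arrays.

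Levels of the fractalkine receptor gene Cx3cr1 ran across hippocampus strains from 8.65 in CAST through a median of 9.83 to 10.53 in C3H and BXA24 on the log2 scale (values normalized within the tissue, 98 strains, SD 0.30). In striatum Cx3cr1 ran from 9.37 in BXD28 through 10.08 to 11.09 in BXA24 (95 strains, SD 0.36). The 3 highest striatum values were all of RI strains of B6 and AJ, BXA24, BXA12 (10.87) and BXA2 (10.86).

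P2ry12, the purinergic receptor gene, was the most variable of the 5 genes, with an SD of 0.73 in hippocampus and 0.76 in striatum, above the SD of 96.9% and 95.8% of the 11746 detected probes. This spread rested largely on 3 classical inbred strains, CE, SWR and FVB. In hippocampus CE stood at 11.10, SWR at 10.94 and FVB at 10.76, whereas the other 95 strains ran from 6.66 (BXD32) through 8.05 to 9.28 (AKR). In striatum CE stood at 11.68, SWR at 11.09 and FVB at 11.05, and the other 92 strains ran from 6.83 (BXD28) through 8.32 to 9.59 (AKR). The same 3 strains were thus apart in both tissues, by 8.25-fold (CE) and 6.54-fold (FVB) over the median of the others in hippocampus and by 10.2-fold and 6.60-fold in striatum. Without them the SD was 0.54 in hippocampus and 0.55 in striatum, still above the median SD of the detected probes, 0.29 and 0.31. A single probe measured P2ry12, and a sequence variant under it cannot be told apart from a difference in RNA.

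Trem2, the lipid receptor gene, ran in hippocampus from 6.64 in CAST through 8.02 to 8.78 in BXH19 (SD 0.39) and in striatum from 7.39 in CAST through 8.40 to 9.38 in BXA12 (SD 0.36). Its adaptor gene Tyrobp ran from 6.45 in strain I through 7.43 to 8.36 in BXD13 (SD 0.34) and from 6.83 in BTBR through 7.64 to 8.45 in BXH7 (SD 0.32). Aif1 ran from 6.64 in CAST through 7.76 to 8.84 in AKR in hippocampus (SD 0.33) and from 6.92 in CAST through 8.02 to 9.18 in AKR in striatum (SD 0.35). The wild-derived strain CAST was thus lowest for Cx3cr1, Trem2 and Aif1 in hippocampus and for Trem2 and Aif1 in striatum, but not for P2ry12, where it stood at 7.96 in both tissues, nor for Tyrobp, at 7.09 and 7.58. On the second Aif1 probe CAST was lowest in striatum (6.80) and next to lowest in hippocampus (6.66, above BXH2 at 6.26). Sequence variants of CAST under these probes were not tested and cannot be told apart from a difference in RNA. The array that stood apart in hippocampus, AXB19b, would have been highest for Aif1 (10.77) and Trem2 (9.57) and lowest for Tyrobp (4.75).

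**Figure D1:**
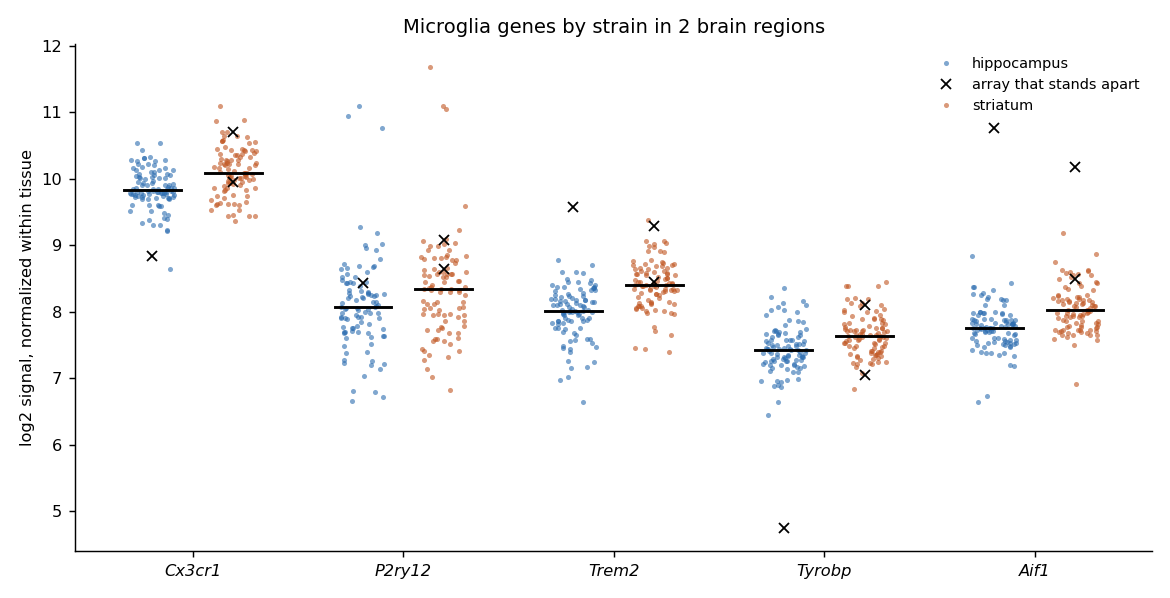
Log2 signal normalized within each tissue (y axis) of the 5 microglia genes in hippocampus (blue) and striatum (orange), 1 point per strain, with the median as a bar and the 3 arrays left out (AXB19b, SM and NZW) as crosses. P2ry12 shows 3 strains above 10.7 in both tissues, CE, SWR and FVB, and the AXB19b cross lies above the points for Trem2 and Aif1 and below them for Tyrobp.

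B6Cc3 was the only strain name with 2 arrays per tissue, which gave the one look at the difference between arrays of a name. Its arrays differed for Cx3cr1 by 1.17 in hippocampus (10.28 and 9.10) and by 1.98 in striatum (10.42 and 8.44), and for Trem2 by 1.59 (8.29 and 6.70) and 1.25 (8.76 and 7.51). In each case replicate 1 was the higher, in both tissues, and the difference exceeded the SD between strains (0.30 to 0.39). Over all probes the median absolute difference of these pairs was 0.19 in hippocampus and 0.23 in striatum. Aif1 differed by 0.06 and 0.30, Tyrobp by 0.45 and 0.98 and P2ry12 by 1.12 and 0.42.

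The parents of the RI sets, with 1 array each, differed for P2ry12 and Tyrobp. DBA lay below B6 for P2ry12 in hippocampus (7.48 against 8.26) and in striatum (7.58 against 8.60), and the BXD strains lay between 6.66 and 8.43 in hippocampus and between 6.83 and 8.78 in striatum. DBA also lay below B6 for Tyrobp in hippocampus (7.09 against 8.03) and in striatum (7.41 against 7.89), and the BXD strains lay between 6.87 and 8.36 in hippocampus and between 7.23 and 8.39 in striatum. For Cx3cr1 AJ lay above B6 in striatum (10.42 against 9.94), and the AXB/BXA strains ran from 9.82 to 11.09. With no second array of a parent these differences have no replicate check.

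The comparison of the tissues asked whether RNA of microglia genes differed between striatum and hippocampus. Trem2 was higher in striatum, and Aif1 and Tyrobp were higher by smaller amounts. In RNA of whole tissue a lower number of cells and less RNA per cell cannot be told apart. After joint normalization Trem2 had a mean log2 signal of 8.34 ± 0.36 in striatum (SD, n = 97) and 8.06 ± 0.43 in hippocampus (n = 99), a difference of 0.28 (SE 0.06, 1.21-fold; limma, adjusted p = 2.99e-06), and it was higher in striatum in 80 of 96 strains. The groups overlapped over most of their range. Aif1 differed by 0.16 (SE 0.06, 1.12-fold, adjusted p = 0.0122 in limma), higher in 70 of 96 strains, and its second probe by 0.09 (SE 0.05, adjusted p = 0.0940). Tyrobp differed by 0.13 (SE 0.05, 1.09-fold, adjusted p = 0.0271 in limma) but was higher in striatum in only 54 of 96 strains. Cx3cr1 differed by 0.10 (SE 0.05, adjusted p = 0.0609) and P2ry12 by 0.10 (SE 0.11, adjusted p = 0.401), both above the threshold of 0.05.

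Thus 3 of the 5 genes passed the limma test, all higher in striatum, where 38.6% of the 12775 probes tested passed in that direction and 36.7% in the other. Nothing particular to these genes can be read from that share. None differed 2-fold, as 3.53% of probes did toward striatum and 3.89% toward hippocampus. With strain as a block in limma 4 of the 5 passed, Cx3cr1 (adjusted p = 0.0117) being the addition, against 40.3% of probes toward striatum and 38.8% toward hippocampus, and so did the second Aif1 probe (0.0156). Without AXB19b, SM and NZW the same 3 genes passed, Trem2 by 0.29, Aif1 by 0.17 and Tyrobp by 0.10. On the values as processed by the authors only Trem2 passed, with 0.154 for Aif1 and 0.0951 for Tyrobp. Each tissue was deposited in a table of its own with other processing, so tissue, table and array run cannot be told apart.

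Calls for other genes of the same cells lay mostly toward striatum, but the lists are small and nothing particular is read from their counts. No resident microglia gene reached 2-fold. Among 10 further resident microglia genes tested, 6 were higher in striatum and 1 in hippocampus (median 0.17, against 0.01 over all probes). With strain as a block these counts were 7 and 2. The gene lists were not run on the authors' processed values. Of all probes tested, 38.6% passed toward striatum and 36.7% toward hippocampus. Gpr34, a lysophospholipid receptor gene, was higher in striatum by 0.50 (SE 0.07, limma adjusted p = 2.65e-12) and Siglech, a sialic acid-binding lectin gene, by 0.50 (SE 0.09, adjusted p = 5.91e-07). Fcrls, an Fc receptor-like gene, was higher in hippocampus by 0.37 (limma coefficient -0.37, SE 0.10, adjusted p = 0.000581). Tmem119, a membrane protein gene used to mark resident microglia, was 0.15 higher in striatum (SE 0.07, adjusted p = 0.0459). Among 11 general myeloid genes tested, 6 were higher in striatum and 0 in hippocampus at the adjusted threshold in limma (median 0.15), beside the same shares of all probes. With strain as a block these counts were 9 and 0. Irf8, a myeloid transcription factor gene, was higher by 0.32 (SE 0.05, limma adjusted p = 6.03e-08) and Ctss, the gene of cathepsin S, by 0.30 (SE 0.06, limma adjusted p = 9.38e-06), while Laptm5 and C1qc had the smallest calls, 0.15 and 0.17. Irf8 was detected on a minority of the arrays in hippocampus, striatum or both. Of the 11 myeloid genes, 10 passed the detection filter in each tissue. A gene kept through a single tissue is favoured toward that tissue.

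The partners of the receptors did not move together. Of 5 ligand and cue genes tested, 1 was higher in striatum and 3 in hippocampus (median -0.16). Of all probes tested, 38.6% passed toward striatum and 36.7% toward hippocampus, so nothing particular is read from such small counts. Cx3cl1, the fractalkine gene, was higher in striatum by 0.31 (SE 0.03, limma adjusted p = 9.13e-19). Csf1, a ligand gene of CSF1R, was lower in striatum (-0.36, SE 0.07, limma adjusted p = 1.08e-06), whereas Il34, the gene of its other ligand, differed by 0.14 (SE 0.07, limma adjusted p = 0.0780), and by 0.16 without AXB19b, SM and NZW (limma adjusted p = 5.70e-05). Csf1 was detected on a minority of the arrays in hippocampus, striatum or both. Apoe and Clu, apolipoprotein genes whose products bind TREM2, were lower in striatum (-0.29 and -0.16). Of 6 genes acting downstream of these receptors, Btk (0.48), Vav1 (0.45) and Ptpn6 (0.35) were higher in striatum and Plcg2, a phospholipase gene of TREM2 signalling, was higher in hippocampus (-0.76, SE 0.06). Btk was detected on 1 hippocampus array and 30 striatum arrays and Plcg2 on 86 and 14, so these differences lay near background in 1 tissue. Both passed the detection filter only through the tissue where they were higher. The filter thus favoured these directions, and nothing is read from the calls of Btk and Plcg2. Of the 6 genes, 4 passed the filter in each tissue.

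Genes of other macrophage states ran the other way or were mixed. All 3 tested genes of perivascular macrophages were higher in hippocampus, F13a1 (-0.65, SE 0.06), Mrc1 (-0.60, SE 0.05) and Stab1 (-0.27, SE 0.05), with limma adjusted p from 5.87e-22 to 1.78e-07. Of 6 genes of activated microglia tested, 3 were higher in striatum and 2 in hippocampus. With 38.6% of all probes called toward striatum and 36.7% toward hippocampus, nothing particular is read from the small counts of these lists. Lpl, a lipase gene that neurons also express, was 0.73 higher in striatum, and Gpnmb (-1.15, SE 0.10) and the MHC class II chain gene Cd74 (-0.73, SE 0.09) were higher in hippocampus. F13a1, Mrc1, Stab1, Gpnmb and Cd74 were each detected on a minority of the arrays in hippocampus, striatum or both. Signal over background limits their differences. Of the 3 perivascular genes 2, and of the 6 activated genes 5, passed the detection filter in each tissue. The rest were kept through a single tissue, which favours a difference toward it. Beside these differences, 5 of 6 oligodendrocyte genes (median 0.72) and 5 of 5 endothelial genes (median 0.30) were also higher in striatum, 3 of 5 choroid plexus genes were higher in hippocampus (median -0.37), and their part in the differences of the microglia genes was not tested.

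**Figure D2:**
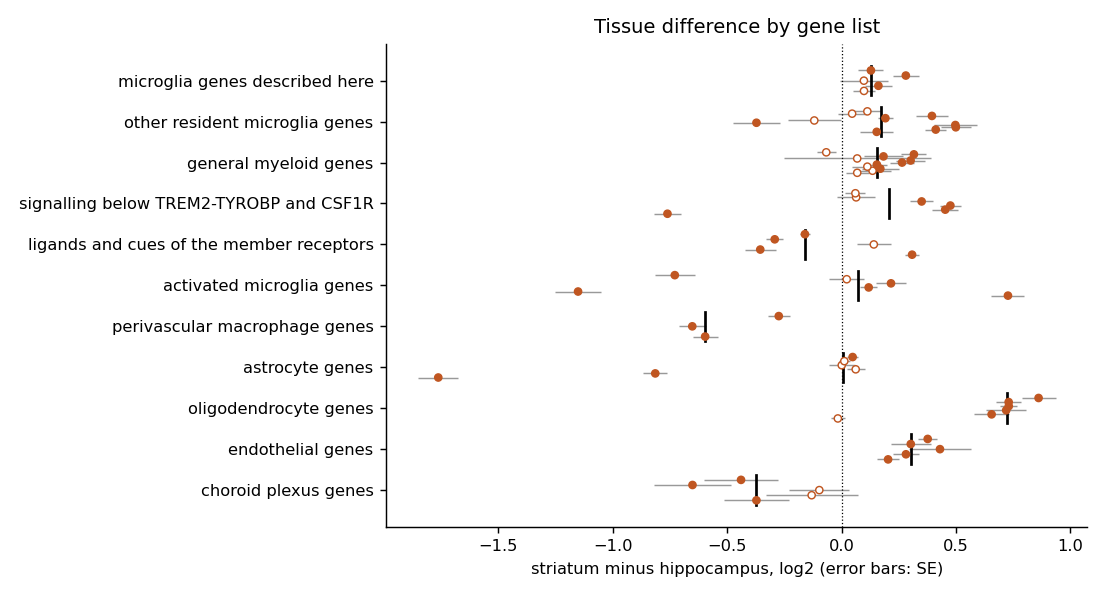
Striatum minus hippocampus on the log2 scale (x axis, bars SE) for every tested gene of 11 gene lists (rows), filled where the limma adjusted p was under 0.05, with the list median as a vertical line. The 5 microglia genes lie between 0.10 and 0.28, the 3 perivascular macrophage genes lie below 0, and 5 of 6 oligodendrocyte genes lie above 0.6.

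The next comparison asked whether a strain with a high level of a gene in one tissue also had a high level in the other. All 5 genes correlated across strains between hippocampus and striatum, at adjusted p under 0.05 over all probes, as did 57.5% of the 11746 probes with a positive r and 0.119% with a negative one. Trem2 had r = 0.739 over 93 strains (rho = 0.660, adjusted p = 3.82e-16, above the r of 92.7% of probes), and r = 0.677 without CAST and BTBR, which lay farthest from the hippocampus median. Aif1 had r = 0.682 (rho = 0.641, adjusted p = 5.44e-13), 0.580 without CAST and AKR, and 0.661 on its second probe. Cx3cr1 had r = 0.544 (rho = 0.492, adjusted p = 1.01e-07), 0.484 without CAST and BXA24. Tyrobp had the lowest value, r = 0.450 (rho = 0.420, adjusted p = 2.31e-05), above the r of 73.6% of probes, and 0.416 without I and BXD13. For P2ry12 r was 0.834 over all 93 strains, but its 3 high strains lay far from the rest, so r is described without them. Over the other 90 strains r was 0.663 (rho = 0.610, adjusted p = 1.00e-11), and 0.657 without the 2 farthest. Permutation p was 1e-05, the smallest that 100000 permutations can give, for each r, and between 1e-05 and 6e-05 for each rho.

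The value of r varied between the sets of strains, and these differences were not tested. Within the other inbred strains r was 0.888 for Trem2 and 0.925 for Aif1 (25 strains), and 0.713 for P2ry12 without its 3 high strains (22 strains), but 0.209 for Tyrobp. Within BXD (30 strains) it was 0.562 for Cx3cr1, 0.510 for Aif1, 0.491 for Tyrobp, 0.428 for P2ry12 and 0.360 for Trem2. Within AXB/BXA (27 strains) P2ry12 had 0.728, Trem2 0.540, Tyrobp 0.434, Cx3cr1 0.412 and Aif1 0.148, although the second Aif1 probe had 0.558. Every within-set value was positive. After adjustment over all probes 4 genes passed within the other inbred strains (P2ry12 also without its 3 high strains, adjusted p = 0.00114), 3 within BXD, 2 within AXB/BXA and 0 within BXH (10 strains, values from 0.328 to 0.815). Of all probes 40.9%, 17.4%, 12.4% and 4.17% passed in these sets with a positive r, so the number of strains and the share of all probes that passed differed between the sets along with the counts.

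**Figure D3:**
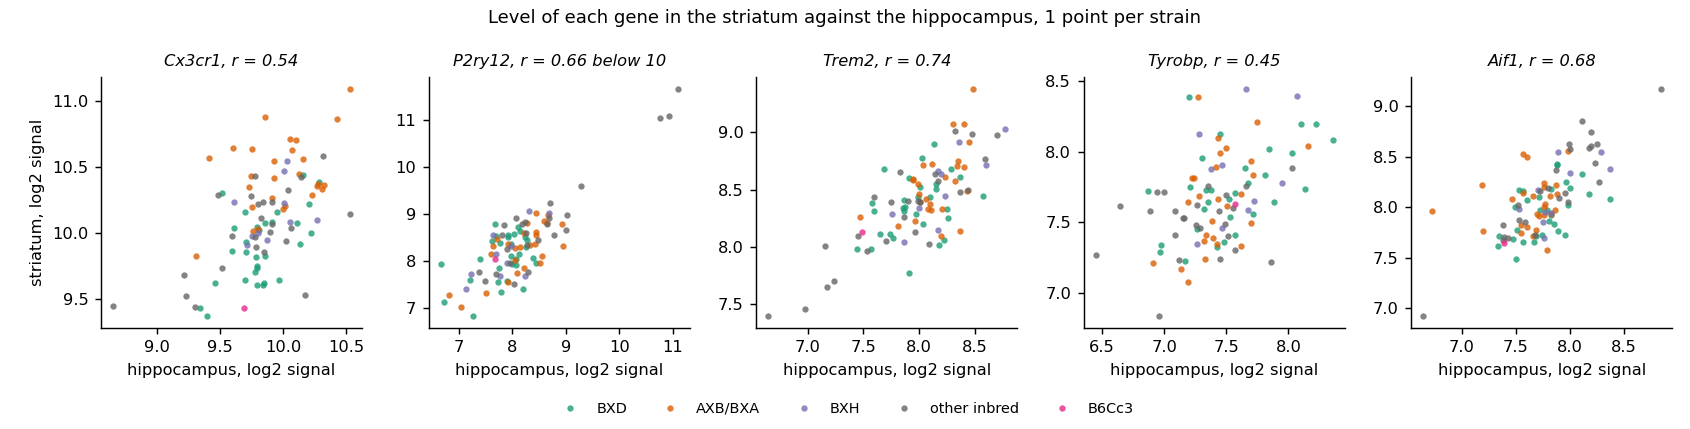
Log2 signal in striatum (y axis) against hippocampus (x axis), normalized within each tissue, 1 point per strain coloured by strain set, for the 5 genes. Points rise to the right in each panel, with r from 0.45 for Tyrobp to 0.74 for Trem2 among the genes other than P2ry12. The P2ry12 panel shows CE, SWR and FVB far above the other strains and gives r = 0.66 without them.

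Within a tissue the 5 genes form 10 pairs. Trem2 took part in most of the called pairs, and P2ry12 and Tyrobp were not called together. A pair was called when its p, adjusted over all probes with either gene as the starting point, was under 0.05. In hippocampus 3 of 10 pairs were called, all with Trem2, and in striatum 4 of 10, of which 3 were with Trem2 and 1 joined Aif1 and P2ry12. Without CE, SWR and FVB the pair of P2ry12 and Trem2 in striatum passed as well. Of all probes, 2.03% correlated positively and 0.962% negatively with Trem2 in hippocampus, and 1.03% and 0.451% in striatum. With Aif1 these shares were 2.95% and 1.04% in hippocampus and 1.66% and 0.869% in striatum. With Tyrobp they were 4.37% and 4.51% in hippocampus and 0.332% and 0.17% in striatum. Cx3cr1 had far more, 14.1% and 14.5% in hippocampus and 20.8% and 19% in striatum, and so had P2ry12 without its 3 high strains, 13% and 17.8% in hippocampus and 11.2% and 9.86% in striatum.

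Cx3cr1 and Trem2 were the pair with the highest r in hippocampus, r = 0.527 (rho = 0.464, n = 98, adjusted p = 4.72e-05), and had r = 0.572 in striatum (rho = 0.565, n = 95, adjusted p = 4.03e-06), with permutation p of 1e-05 for both measures in both tissues. Without the 2 strains farthest from the median these were 0.445 and 0.519. Within the strain sets the hippocampus value ran from 0.089 in BXD to 0.697 in BXH, and the striatum value from 0.447 in the other inbred strains to 0.774 in BXH.

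Aif1, the gene of the actin-binding marker, and Trem2 had r = 0.383 in hippocampus (rho = 0.368, adjusted p = 0.0129, permutation p = 0.00012) and r = 0.574 in striatum (rho = 0.544, adjusted p = 1.42e-05, permutation p = 1e-05). The hippocampus call rested on CAST: without this strain r was 0.297 (adjusted p = 0.131). Within the sets r was positive throughout, between 0.149 (BXH) and 0.623 (BXD) in hippocampus and between 0.537 (BXD) and 0.689 (other inbred) in striatum. Both genes are on chromosome 17, with 249 protein-coding genes between them, and the part of linkage in their r was not tested. The second Aif1 probe gave 0.377 and 0.445 with Trem2.

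Trem2 and Tyrobp, the receptor gene and its adaptor gene, had r = 0.406 in hippocampus (rho = 0.342, adjusted p = 0.00727, permutation p = 8e-05) and r = 0.377 in striatum (rho = 0.328, adjusted p = 0.0437, permutation p = 8e-05). With the array of AXB19b included the hippocampus value was 0.057, and with SM and NZW included the striatum value was 0.310 (adjusted p = 0.230). Within the sets it was positive throughout, from 0.118 in AXB/BXA to 0.521 in BXD in hippocampus and from 0.202 in BXD to 0.646 in BXH in striatum.

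P2ry12 was tied to Aif1 in striatum, with r = 0.383 without its 3 high strains (rho = 0.318, n = 92, adjusted p = 0.0244, permutation p = 0.00013), but not beyond the threshold in hippocampus (r = 0.124, n = 95, adjusted p = 0.530). With Trem2 it had 0.365 in striatum (adjusted p = 0.0345) and 0.125 in hippocampus (adjusted p = 0.532), again without the 3 strains. With Tyrobp it was the one pair of negative sign in both tissues, -0.222 in hippocampus (permutation p = 0.0297) and -0.0978 in striatum (permutation p = 0.351), neither called after adjustment. With all strains kept, r of P2ry12 with the described Aif1 probe was 0.215 in hippocampus and 0.486 in striatum. With the second Aif1 probe it was -0.0792 and 0.102, so the probes differed. Within the sets the striatum value of the described probe was 0.317 in BXD, -0.031 in AXB/BXA, 0.254 in BXH and 0.648 in the other inbred strains. The other inbred strains include CE, SWR and FVB here. The 2 detected Aif1 probes correlated with each other at 0.534 in hippocampus and 0.554 in striatum.

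The probes most like each gene were taken as the 3 of highest r per tissue over all strains kept, which for P2ry12 included CE, SWR and FVB. Those of Trem2 were other genes of macrophages and leukocytes in both tissues. The cut at 3 matters here: Spink8, listed for hippocampal neurons, lay just below the third of them in hippocampus, as given below. In hippocampus they were Laptm5, a lysosomal membrane protein gene of blood-derived cells (r = 0.576), Siglech (0.574) and Ly86, the gene of the toll-like receptor partner MD-1 (0.558), and these reached 0.519, 0.343 and 0.367 in striatum. In striatum they were Adgre1, the gene of the macrophage antigen F4/80 (0.621), Lag3 (0.584) and Aif1 (0.574), and Adgre1 and Lag3 reached 0.387 and 0.537 in hippocampus. All of these passed adjustment over all probes in both tissues. Adgre1 is also on chromosome 17, with 90 protein-coding genes between it and Trem2.

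Tyrobp joined a complement gene and genes of its own chromosome. In striatum its closest probe was that of C1qa, a chain of complement C1q made by microglia (r = 0.564, adjusted p = 3.06e-05), which reached 0.434 in hippocampus. Tbcb and Sult2b1 in hippocampus (0.493 and 0.484) and Dmwd and Zfp940 in striatum (0.469 and 0.462) are on chromosome 7 as Tyrobp is, with 8 protein-coding genes between Tyrobp and Tbcb, 22 to Zfp940, 301 to Sult2b1 and 351 to Dmwd. Id3 in hippocampus (0.480) had 0.036 in striatum.

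The closest probes of Cx3cr1 belonged to none of the lists of microglia and myeloid genes. They were Abhd8 (0.688), Sobp (0.667) and Ap3d1 (0.640) in hippocampus and Wipi2 (0.723), 2610507B11Rik (0.694) and Notch3 (0.693) in striatum. For P2ry12, chosen with the 3 high strains included, they were the tight junction gene Tjp1, S100b, a calcium-binding protein gene of astrocytes, and Vps36 in hippocampus and the mitochondrial protein genes Acadsb, Aifm1 and Hspe1 in striatum. Without the 3 strains their r was 0.808, 0.780 and 0.521 in hippocampus and 0.776, 0.733 and 0.771 in striatum. The choice itself changed without these strains: the 3 highest were then Ptma (0.828), Paip2 (0.827) and Zfand6 (0.820) in hippocampus and Ttc33 (0.778), Acadsb and Hspe1 in striatum, and Cd53 (0.714) and Ctss (0.636) lay above Vps36 in hippocampus. For Aif1 they were Pter (0.542), Alox5ap, a leukotriene pathway gene of myeloid cells (0.529), and Dctpp1 (0.492) in hippocampus, and beside Trem2 they were Mrpl14 (0.496) and Itgb5 (0.492) in striatum. With the AXB19b array included, Pter fell to 0.114 and Alox5ap to 0.089. The r with the share of probes detected per array, a measure of array quality, was -0.379 for Cx3cr1 in hippocampus, against -0.144 to 0.183 for the other 4 genes there. In striatum it was -0.203 for Cx3cr1 and -0.223 for P2ry12, and -0.144 to 0.00778 for the other 3. The r with an array's median rank correlation with the others, a further such measure, was highest for Aif1 (0.235) and lowest for Cx3cr1 (0.0497) among the 5 genes in hippocampus, and ran from -0.156 for Cx3cr1 to 0.0338 for Aif1 in striatum. The part of these measures in the correlations was not tested.

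Among 10 further resident microglia genes, 4 correlated positively with Cx3cr1 in hippocampus and 8 in striatum at adjusted p under 0.05 over all probes, 3 and 4 with Trem2, 3 and 4 with Aif1, 1 and 1 with P2ry12 without its 3 high strains, and 1 and 0 with Tyrobp, and none correlated negatively. The shares of all probes with a positive call, given above, were larger for Cx3cr1 and P2ry12 than for the other 3 genes, and the P2ry12 count is near its share. Their median r lay between 0.0857 (P2ry12) and 0.279 (Trem2) in hippocampus and between 0.111 (P2ry12) and 0.268 (Cx3cr1) in striatum, against medians over all probes between -0.0649 and 0.0150. Tmem119 had r = 0.560 and 0.544 with Cx3cr1 and 0.449 and 0.548 with Trem2, but 0.226 and 0.107 with Tyrobp.

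Among 10 general myeloid genes, 4 in hippocampus and 3 in striatum were tied to Trem2, 5 and 3 to Tyrobp, 1 and 2 to Aif1, 1 and 3 to Cx3cr1 and 2 and 2 to P2ry12. Against the shares of all probes with a positive call, the counts of Cx3cr1 (14.1% and 20.8%) and P2ry12 (13% and 11.2%) are near the background, and nothing is read from them, whereas the shares for Trem2, Tyrobp and Aif1 were at most 4.37%. Values of single genes are given for Tyrobp and P2ry12, and no contrast is read from the P2ry12 calls. The 3 chains of complement C1q, C1qa, C1qb and C1qc, had r of 0.434, 0.301 and 0.389 with Tyrobp in hippocampus, all past the threshold, and of 0.564, 0.239 and 0.261 in striatum, where C1qa alone passed. With P2ry12, without its 3 high strains, they had -0.210, -0.227 and -0.197 in hippocampus and -0.208, -0.103 and -0.112 in striatum, and none passed. The genes tied to P2ry12 in both tissues were Cd53, a tetraspanin gene of leukocytes, with 0.714 and 0.670, and Ctss, with 0.636 and 0.548. By r with P2ry12 among all probes with a gene name, Cd53 ranked 121 in hippocampus and 74 in striatum, and Ctss 267 and 312. Cd53 had -0.168 and 0.105 with Tyrobp. Neither Trem2 nor Aif1 had a called correlation with any of 6 astrocyte, 6 oligodendrocyte or 5 endothelial genes in either tissue. Of all probes, at most 2.95% had a positive and 1.04% a negative call with these 2 genes, so nothing particular is read from this. Tyrobp had 1 positive call in each of these 3 lists in hippocampus and 0 in striatum. P2ry12, without its 3 high strains, had 1 positive endothelial call in hippocampus, and 1 positive and 1 negative astrocyte call in striatum. Of the neuron genes, Trem2 correlated positively with Spink8, listed for hippocampal neurons, in both tissues (0.557 and 0.499), and with the striatal neuron gene Drd2 in hippocampus (0.341). The hippocampus value of Spink8 lay beside that of Ly86 (0.558), the third of the closest probes of Trem2, so probes close to Trem2 were not of myeloid genes only. Cx3cr1 had 2, 2 and 1 positive calls with the astrocyte, oligodendrocyte and endothelial genes in hippocampus and, in striatum, 3, 2 and 2 positive and 0, 3 and 1 negative ones, and no difference from Trem2 or Aif1 is read from these counts, since Cx3cr1 had more calls over all probes.

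**Figure D4:**
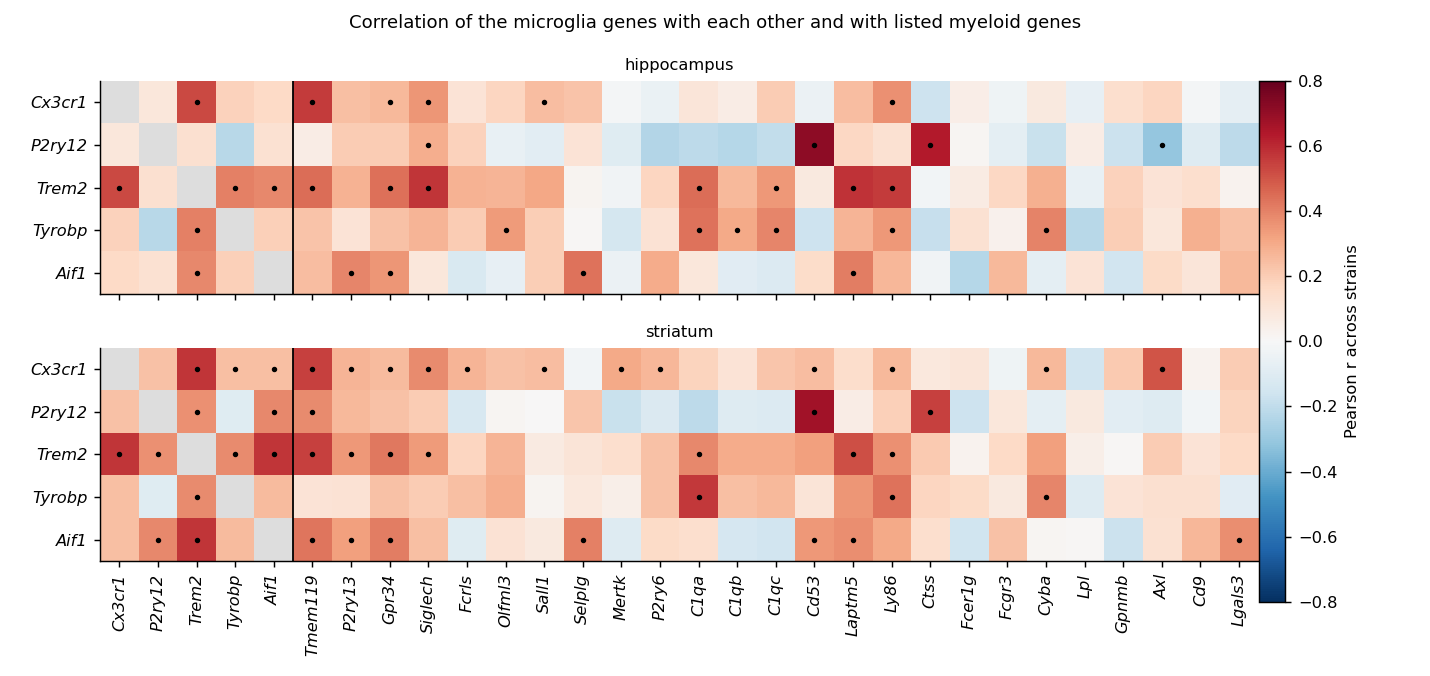
Pearson r across strains (colour) of each microglia gene (rows) with the other members (left of the line) and with further resident microglia, myeloid and activated microglia genes (columns), in hippocampus (98 strains, top) and striatum (95 strains, bottom). Dots mark adjusted p under 0.05 over all probes for the gene of the row, relations of P2ry12 leave out CE, SWR and FVB, and the P2ry12 row is reddest for Cd53 (0.714 and 0.670) while the Tyrobp row is for C1qa in striatum (0.564).

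The last comparison asked whether the sets of strains, BXD, AXB/BXA, BXH and the other inbred strains, differed in the level of these genes. In hippocampus 3 of the 5 genes passed the limma F test over the 4 sets (Trem2, Tyrobp and P2ry12), as did 32.1% of all probes, and in striatum 4 passed (Cx3cr1 and the same 3), as did 55.6%. Cx3cr1 in striatum had the lowest p of the 5 (limma adjusted p = 3.25e-08). Its mean was 10.44 ± 0.28 (SD) in 28 AXB/BXA strains, 10.15 ± 0.22 in 10 BXH strains, 9.999 ± 0.32 in 26 other inbred strains and 9.90 ± 0.27 in 30 BXD strains. In hippocampus AXB/BXA was also highest (9.98 ± 0.30) but the F test gave an adjusted p of 0.114.

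Trem2 averaged 8.20 ± 0.30 in BXH, 8.15 ± 0.23 in AXB/BXA, 7.97 ± 0.27 in BXD and 7.78 ± 0.53 in the other inbred strains in hippocampus (limma adjusted p = 0.00338). In striatum the other inbred strains were again lowest (8.26 ± 0.47), below BXD (8.35 ± 0.26), BXH (8.52 ± 0.32) and AXB/BXA (8.55 ± 0.30; adjusted p = 0.0235). Tyrobp was highest in BXH (7.63 ± 0.29 and 7.86 ± 0.37) and lowest in the other inbred strains (7.28 ± 0.34 and 7.50 ± 0.22) in both tissues (adjusted p = 0.0200 and 0.0116). For P2ry12 the other inbred strains were highest, 8.46 ± 1.05 in hippocampus and 8.77 ± 1.08 in striatum, and the calls rested on CE, SWR and FVB: without them the adjusted p rose to 0.131 in hippocampus (0.0287 with them) and to 0.157 in striatum (0.0106 with them). Aif1 passed in neither tissue (adjusted p = 0.0930 and 0.138), but passed in both without CAST (0.0220 and 0.0295). With the 3 arrays included Tyrobp in hippocampus (0.101) and Trem2 in striatum (0.0690) no longer passed.

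The tissue difference of Cx3cr1 itself differed between the sets. Striatum minus hippocampus within a strain averaged 0.29 ± 0.32 (SD) in 27 AXB/BXA strains, 0.07 ± 0.32 in 25 other inbred strains, 0.06 ± 0.24 in 10 BXH strains and -0.09 ± 0.24 in 30 BXD strains (limma F test on the within-strain differences, adjusted p = 0.000491). Of all probes, 37.6% passed this test, so 1 of 5 genes is below the share of all probes. The other 4 genes did not pass, with adjusted p from 0.0669 (Aif1) to 0.938 (Tyrobp). Trem2 was higher in striatum on average in every set, by 0.17 to 0.33.

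**Figure D5:**
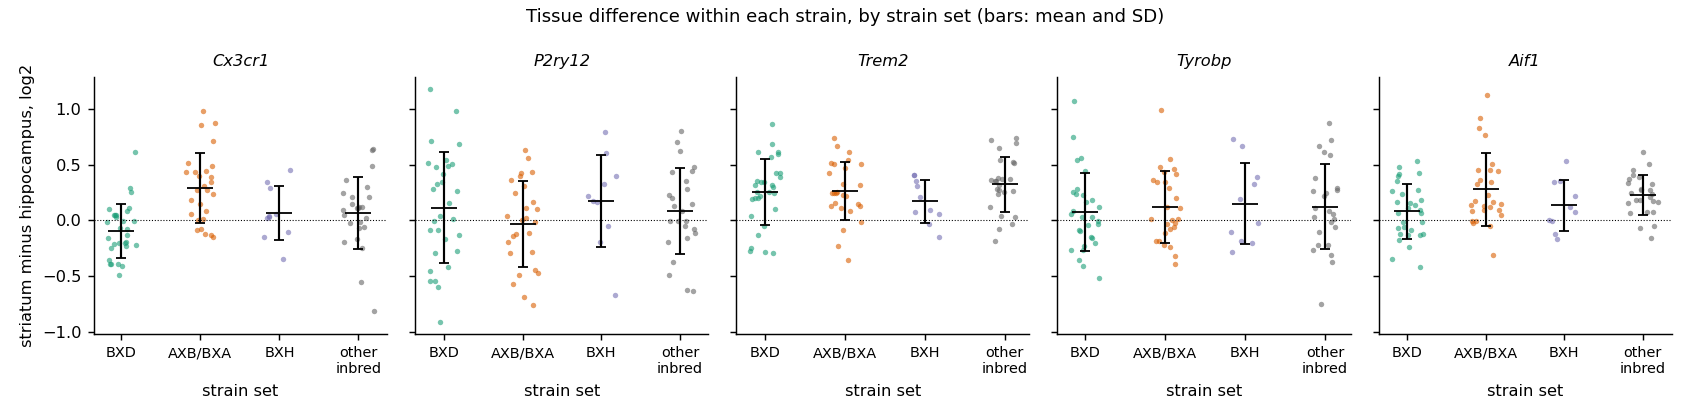
Striatum minus hippocampus within each strain on the log2 scale (y axis), by strain set (x axis), for the 5 genes, 1 point per strain with the mean and SD as bars. For Cx3cr1 the AXB/BXA strains average 0.29 and the BXD strains -0.09, while for Trem2 all 4 sets average above 0.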

How the data were processed

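RNA of whole hippocampus and whole striatum was hybridized to Illumina MouseRef-8 v2.0 arrays, and the authors normalized the data by the rank-invariant method of BeadStudio. For each probe of an array the authors deposited its signal intensity with a detection p-value. The hippocampus intensities equal the authors' processed series table in 100% of values (relative tolerance 1e-04), so they are already normalized, and the striatum intensities in 0.0763%, so they are not. Here the deposited intensities were background corrected from the detection p-values (limma 3.58.1, R 4.3.3, normexp, offset 16), quantile normalized and put on the log2 scale, within each tissue for correlations and strain sets and jointly for the tissue difference. The authors' processed intensities, floored at 16 before log2, were an alternative.

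Probes were kept when detected (p under 0.01) in at least 20% of the arrays of either tissue (12775 probes, tissue difference) or of each tissue (11746 probes, the rest). In the tissue difference a probe kept through a single tissue was favoured toward that tissue. Arrays have no depth, and their number and signal over background limit the precision: 22.4% to 49.5% of probes were detected per hippocampus array and 35.2% to 46.4% per striatum array. Tissues and strain sets were compared with limma (lmFit and eBayes), two-sided, with Benjamini-Hochberg adjustment over all probes kept, and correlations with Python 3.11.15 (scipy 1.17.1), with 100000 permutations for the genes described. A gene is represented by its probe of highest mean signal. The 2 B6Cc3 arrays of a tissue were averaged. No measured column was left unused.

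Arrays of the 2 tissues were paired by strain name. Deviations from the tissue means correlated within strain with a median of 0.478 (lowest -0.0896, 93 of 96 above 0.1), and 73 of 96 strains matched their own name best. The main tissue comparison had no block. Gene names came from the array annotation (23978 probes with 1 symbol, 1719 with none) updated through RefSeq (GRCm38.p6). Genes named are every member, the 3 probes of highest r per gene and tissue, and per gene list up to 2 genes with the highest and 2 with the lowest tissue difference past the threshold, and the genes not detected. Other list genes given as examples were picked with their values known. The members, the gene lists and the tests were chosen with earlier results of these data known.

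The tissue difference without a block, the F test over strain sets and the correlation were tested on simulated data. The fit with strain as a block and the F test on within-strain differences were not. Alternatives were other backgrounds and normalizations, other detection filters, ranks, strain as a block and leaving out single strains or arrays. Leaving out KK, AXB15 and AXB19, or CE, SWR and FVB, and every alternative for the difference of the tissue effect between sets, were added after the data were seen.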

Additional observations from a re-analysis of the deposited data

Results flagged for a closer look

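Cx3cr1 is singled out because its tissue difference differed between strain sets (limma adjusted p = 0.000491). Under 7 alternatives for this test the adjusted p ran from 0.000182 (without AXB15 and AXB19) to 0.000749 (with the arrays of AXB19b, SM and NZW). Cx3cr1 was higher in striatum in 22 of 27 AXB/BXA strains and in 10 of 30 BXD strains. Striatum minus hippocampus differed between sets for 37.6% of all probes, and the share of probes detected per array had r = -0.379 (hippocampus) and -0.203 (striatum) with Cx3cr1. Its part in this difference was not tested.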

How the results depend on the processing

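The number of genes that passed the tissue difference was 3 and became 1 on the authors' processed values (Aif1 0.07, adjusted p = 0.154; Tyrobp 0.05, adjusted p = 0.0951). With strain as a replicate block it was 4 (Cx3cr1 0.10, adjusted p = 0.0117), and no call was lost. Cx3cr1 also passed under median centring (0.21, adjusted p = 0.000706), and Tyrobp did not on ranks within arrays (adjusted p = 0.0528). For tissue agreement, 5 genes passed over all strains, 4 within the other inbred strains, 3 within BXD, 2 within AXB/BXA and 0 within BXH, where 10 strains gave r from 0.328 to 0.815 and 3 genes had an unadjusted p under 0.05. In hippocampus 3 pairs passed, and 1 with Spearman's rho, Cx3cr1 with Trem2. In striatum Spearman's rho lost Aif1 with P2ry12 (adjusted p = 0.0683) and Trem2 with Tyrobp (0.125) and gained P2ry12 with Trem2 (0.0186), the authors' processed values lost Trem2 with Tyrobp (0.0692), and median centring gained Cx3cr1 with Tyrobp (0.0225). With the 3 arrays included Trem2 with Tyrobp was lost in striatum (0.230) and P2ry12 with Trem2 gained (0.0465). With AXB19b, SM and NZW included, 2 hippocampus pairs turned negative, Cx3cr1 with Aif1 (-0.106) and Aif1 with Tyrobp (-0.315), Cx3cr1 with Tyrobp passed (0.338) and Trem2 with Tyrobp did not (0.057). For the tissue effect between strain sets the number rose from 1 to 2 under median centring, with Aif1 (adjusted p = 0.0404). The causes were not tested beyond what each setting leaves out. Of the values of single genes and pairs under alternatives, 83 hippocampus and 82 striatum pair values, 37 strain-set values per tissue, 64 agreement values and 40 tissue differences kept their direction and side of the threshold. Slide was not given, and no fit with slide as a block was run. Signal over background limits Btk, Irf8, Csf1, Plcg2, Ptpn6, F13a1, Mrc1, Stab1, Gpnmb and Cd74, each detected on a minority of the arrays of 1 or both tissues.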
